A study of Homo sapiens with 8 samples.

Results

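The genes described here are 49 named genes of DNA replication and S phase, followed across 4 transfections of Reh cells. They were taken by gene symbol, and each was represented by the probe set with the highest mean over the 8 arrays. All 49 passed the floor on dim probe sets, log2 5 on at least 2 arrays, and they are 49 of the 11449 genes tested. Their mean levels ran from log2 6.82 to 13.01, and 45 of them averaged at least log2 8, so none depended on a single group to be tested.

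Reh is an established human B-cell precursor line, which the study's design text derives from acute lymphoblastic leukemia and the sample labels list under non-Hodgkin lymphoma. Each group was profiled on 2 Affymetrix U133 Plus 2.0 arrays that the labels call biological duplicates. The first group had received an shRNA against CBFA2T3 and the constitutively active kinase variant IKKβ(EE) together (below, both constructs). The second group had received the CBFA2T3 shRNA, the third IKKβ(EE), and the fourth a control shRNA, whose sample titles read mock. The design asks what loss of CBFA2T3, active IKKβ and their combination do to expression. CBFA2T3 is a corepressor of the ETO family, and IKKβ (gene IKBKB) phosphorylates IκB and so frees NF-κB. Whether an shRNA accompanied IKKβ(EE) in the cells with that kinase alone is not given, nor are the vectors, the share of cells transfected or the time of harvest. All groups are 1 line, so the spread between arrays contains no difference between patients.

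A cell copies its DNA once per division. In G1 phase the origin recognition complex with CDC6 and CDT1 loads the MCM2-7 helicase, at the start of S phase CDC45, GINS and MCM10 switch it on, and primase, polymerases and the PCNA clamp then build new strands. Many of these genes are transcribed in late G1 and S phase under E2F factors, which the retinoblastoma family holds back until cyclin-dependent kinases act. Their mRNA level in a population therefore depends on how many cells are in those phases as well as on the amount per cell, and bulk arrays cannot tell apart fewer such cells and less RNA per cell.

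Promoter sequence was read for the members because E2F factors bind a short core upstream of many replication genes. In RefSeq's promoter table (GRCh38.p14), 42 of the 49 members had a window of 250 bases before a gene start. MCM4, MCM5, GINS4, POLD3, RPA2, RPA3 and CCNE2 are named only. The core searched was TTNNCGC, where each N is C or G, on both strands, and matches on opposite strands may overlap. At least 1 core lay in 24 of the 42 members (57.1%), in 20.9% of the 9361 tested genes with a window and in 10.9% of all 35116 windows of that length. The 5 windows below are those of PRIM1, whose change with both constructs was the largest of the members, of GINS2, whose replicates differed most, of MCM6, where the core occurs at 2 places and is matched on both strands at each, of E2F2, an E2F factor itself, and of MCM10, which holds no core. They run 5′ to 3′ in the direction of the gene, and capitals mark the core.
PRIM1 promoter, GRCh38.p14 chr12:56752324-56752573, minus strand: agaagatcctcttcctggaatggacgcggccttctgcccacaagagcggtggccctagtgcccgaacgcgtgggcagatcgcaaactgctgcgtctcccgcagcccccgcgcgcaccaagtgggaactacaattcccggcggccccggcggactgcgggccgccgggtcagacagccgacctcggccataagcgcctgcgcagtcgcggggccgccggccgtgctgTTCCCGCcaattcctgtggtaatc
GINS2 promoter, GRCh38.p14 chr16:85688955-85689204, minus strand: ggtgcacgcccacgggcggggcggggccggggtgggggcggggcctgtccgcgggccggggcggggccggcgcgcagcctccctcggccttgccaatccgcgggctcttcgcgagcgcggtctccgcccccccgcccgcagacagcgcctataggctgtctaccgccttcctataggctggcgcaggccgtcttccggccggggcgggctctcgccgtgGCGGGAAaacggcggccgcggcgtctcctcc
MCM6 promoter, GRCh38.p14 chr2:135876444-135876693, minus strand: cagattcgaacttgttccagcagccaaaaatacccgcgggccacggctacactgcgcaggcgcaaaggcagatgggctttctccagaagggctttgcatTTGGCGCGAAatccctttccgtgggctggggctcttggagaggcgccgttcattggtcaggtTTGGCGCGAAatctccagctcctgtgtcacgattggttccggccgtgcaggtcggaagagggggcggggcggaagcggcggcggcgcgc
E2F2 promoter, GRCh38.p14 chr1:23531234-23531483, minus strand: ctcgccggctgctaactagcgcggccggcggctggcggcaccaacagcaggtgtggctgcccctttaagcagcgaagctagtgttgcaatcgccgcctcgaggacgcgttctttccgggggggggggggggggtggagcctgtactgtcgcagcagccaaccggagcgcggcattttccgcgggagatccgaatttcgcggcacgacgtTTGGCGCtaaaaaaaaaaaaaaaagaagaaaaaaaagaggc
MCM10 promoter, GRCh38.p14 chr10:13161308-13161557, plus strand: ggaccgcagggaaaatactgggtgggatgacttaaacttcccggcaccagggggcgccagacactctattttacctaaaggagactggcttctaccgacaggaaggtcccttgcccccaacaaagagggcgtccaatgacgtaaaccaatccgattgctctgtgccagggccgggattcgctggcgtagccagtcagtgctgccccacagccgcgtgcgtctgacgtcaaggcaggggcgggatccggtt

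The core began at position -24 from the gene start in PRIM1, at -31 in GINS2 and at -41 in E2F2, and in PRIM1 it overlapped a CCAAT motif. CCAAT, which the factor NF-Y binds, was searched on both strands as well. It lay in 57.1% of the members with a window, MCM10 among them, in 77.1% of 35 genes of G2 and mitosis and in 41.98% of the tested genes. The cell-cycle homology region (TTTGAA or TTCGAA, both strands), known from promoters of mitotic genes, lay in 3 of the 42 members (7.14%), in 54.3% of the mitotic genes and in 13.99% of the tested genes. A match of letters is a description of the window and no site of binding.

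The constructs were seen on the arrays. CBFA2T3 was at log2 8.23 and 7.83 with both constructs, 8.40 and 8.11 with its shRNA, 8.91 and 8.89 with IKKβ(EE) alone, and 9.22 and 9.29 in control cells (replicates 1 and 2, the order used throughout). The IKBKB probe set that detected the construct was at 11.45 and 11.97 with both constructs, 4.43 and 3.60 with the CBFA2T3 shRNA, 10.85 and 10.39 with IKKβ(EE) alone, and 3.97 and 4.02 in control cells. The other tested IKBKB probe sets were at 8.59 and 8.71, and at 6.92 and 6.81, in control cells. They differed from control by 0.09 and 0.38 with both constructs (limma adjusted p = 0.782 and 0.247). With IKKβ(EE) alone they differed by 0.32 and 0.26 (adjusted p = 0.575 and 0.676). Of 11 B-precursor markers on the array, 10 reached the floor, while VPREB1 stayed between 2.93 and 3.49. The mean level of all 11, VPREB1 included, was log2 10.25 to 10.49 on the arrays with both constructs and 10.59 to 10.63 on the control arrays. All 10 that reached the floor were lower with both constructs than in control cells (median -0.30), with 0 called and 2 called with the replicate number as a block. Over all tested genes 3.76% and 11.6% were called lower in the same fits. With both constructs all 10 were also lower on replicate 2 than on replicate 1. The floor was reached by 1 of 6 T-cell markers (CD5), 2 of 8 myeloid markers (CSF1R and ITGAM) and 2 of 2 erythroid markers. CD3E, CD14 and S100A8 stayed under log2 5 on every array. CD3D exceeded it only on control replicate 1 (5.11), and MPO only on replicate 1 with the CBFA2T3 shRNA (5.08). LYZ stayed under log2 5 but was not level. It was at 4.29 and 4.55 with the CBFA2T3 shRNA and at most 3.08 in control cells. LYZ was at 3.79 and 3.11 with both constructs, and at 2.63 and 2.89 with IKKβ(EE) alone. ITGAM was at 5.66 and 6.70 with both constructs, 5.87 and 6.21 with the CBFA2T3 shRNA, 5.99 and 6.92 with IKKβ(EE) alone, and 5.32 and 5.61 in control cells, so it was above control on every other array and higher on replicate 2 in each group (0.65 ± 0.14, limma adjusted p = 0.0362). It passed against control only with the block, for both constructs and for IKKβ(EE) (blocked adjusted p = 0.0388 and 0.0438). CSF1R did not share this pattern throughout. On replicate 1 with IKKβ(EE) alone (4.61) CSF1R lay under both control arrays, and on every other array outside the control group it lay above them. CSF1R was lower on replicate 2 with both constructs (5.18 and 5.02) and with the CBFA2T3 shRNA (5.28 and 5.15), and higher on it in the other groups. The 3′ minus 5′ difference of ACTB probe sets, a sign of RNA integrity, was 1.65 and 1.51 with both constructs, 1.52 and 1.81 with the CBFA2T3 shRNA, 1.25 and 1.84 with IKKβ(EE) alone, and 1.55 and 1.94 in control cells. The same difference for GAPDH was 0.26 and 0.28 with both constructs and 0.30 and 0.28 with the CBFA2T3 shRNA. With IKKβ(EE) alone it was 0.29 and 0.38, and in control cells 0.33 and 0.35. The part of these differences in the results below was not tested.

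Replication genes were lower as a group in cells with both constructs than in control cells. Their median log2 difference was -0.49, against -0.02 over all 11449 tested genes, and 46 of 49 had a lower mean. On 35 members both arrays with both constructs lay under both control arrays, which 29.8% of the tested genes also showed. Only PRIM1 passed the test (limma, adjusted p under 0.05 over 24481 probe sets), beside 3.76% of tested genes called lower and 4.97% called higher. At an unadjusted p under 0.05, 22 members were lower and 0 higher, beside 1623 of all 11449 tested genes lower and 1549 higher. Once the replicate number entered as a block, 23 members fell and none rose, beside 11.6% of tested genes called lower and 12.5% called higher. All 23 were lower in both replicate numbers, but the size differed, since the median of the 49 members was -0.21 within number 1 and -0.75 within number 2. Without replicate 1 of the group with both constructs the unblocked fit called 30 members, and leaving out any other single array left 0. A group with an array left out has 1 array, which is then assumed to vary like the other groups. The blocked count was 1 without control replicate 2 (GINS3) and 2 without replicate 2 of the group with both constructs (GINS3 and POLD1).

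**Figure D1:**
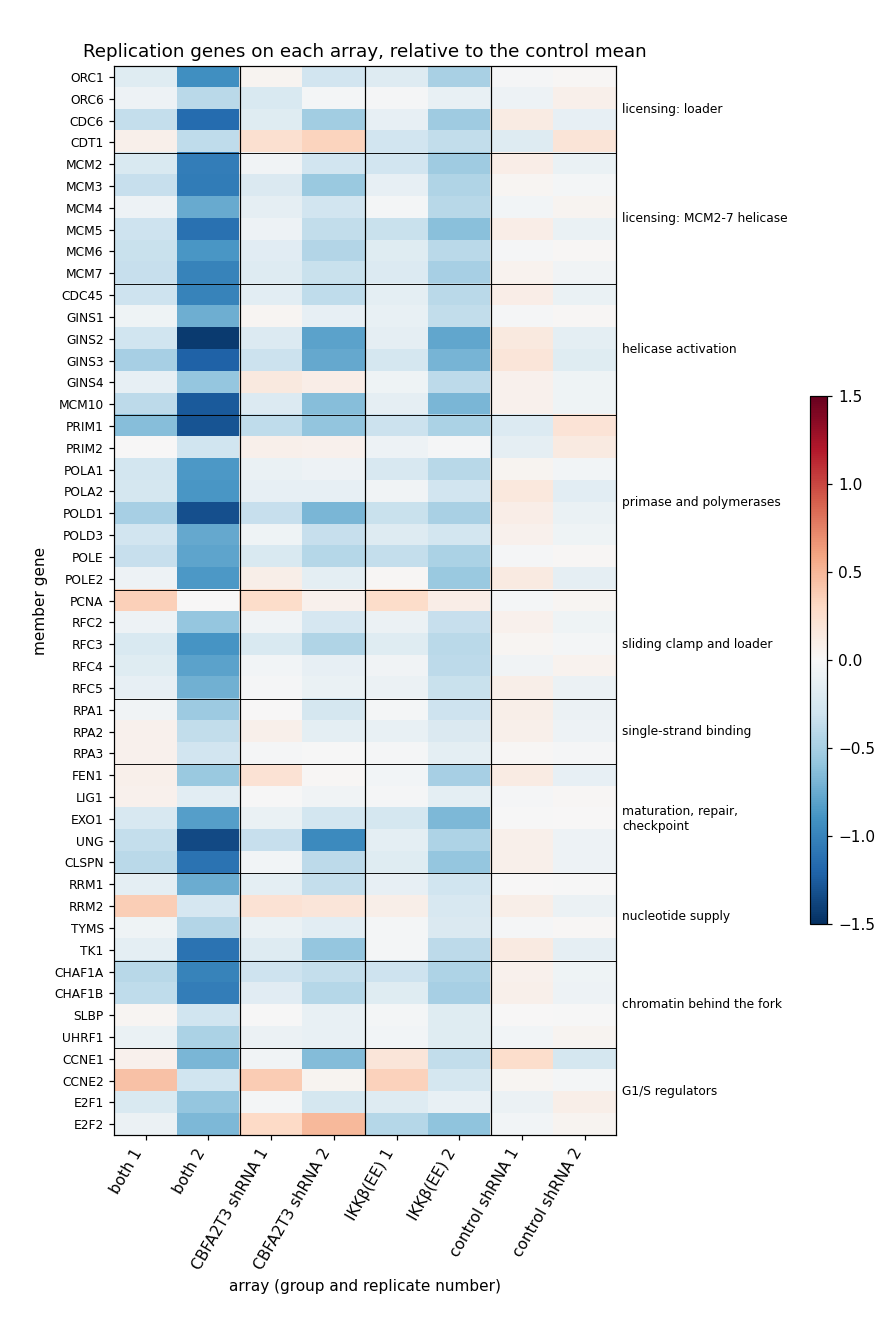
Log2 level of each of the 49 members (down the page, by role) on each of the 8 arrays (across), minus the mean of the 2 control arrays of that gene; blue is lower and red is higher, on a scale from -1.5 to 1.5. The column of replicate 2 with both constructs is the lowest of its line for 48 members, and PCNA is the exception.

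Of the origin loaders, CDC6 fell with both constructs when the replicate number was in the fit. CDC6, the ATPase that helps the origin recognition complex to load the helicase, was at 8.48 and 7.69 with both constructs, 8.65 and 8.32 with the CBFA2T3 shRNA, 8.71 and 8.30 with IKKβ(EE) alone, and 8.96 and 8.72 in control cells. The groups at the ends did not overlap, and the difference of -0.76 ± 0.27 (SE) left 59.2% of control (limma adjusted p = 0.128, or 0.0111 with the block). ORC1, the largest subunit of the origin recognition complex, averaged 7.79 with both constructs and 8.34 in control cells (difference -0.55 ± 0.24, adjusted p = 0.195, or 0.0549 with the block). ORC6, its smallest subunit, was at 9.72 and 9.40 with both constructs, 9.58 and 9.77 with the CBFA2T3 shRNA, 9.79 and 9.69 with IKKβ(EE) alone, and 9.72 and 9.88 in control cells, so that its groups overlapped. CDT1, the partner of CDC6 in loading, was at 9.26 and 8.80 with both constructs, 9.43 and 9.51 with the CBFA2T3 shRNA, 8.90 and 8.81 with IKKβ(EE) alone, and 8.99 and 9.37 in control cells. Both CDT1 values with the CBFA2T3 shRNA lay above the control values and both with IKKβ(EE) lay below them, but neither difference passed the test (0.29 ± 0.19 and -0.33 ± 0.19, adjusted p = 0.508 and 0.604). A second CDT1 probe set (mean 8.15) differed by -0.76 with both constructs (adjusted p = 0.048), where the probe set used differed by -0.15 ± 0.19 (adjusted p = 0.646), so the CDT1 probe sets disagree.

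The 6 subunits of the MCM2-7 helicase, the ring that unwinds DNA at the fork, were lower with both constructs than in control cells. Their differences ran from -0.71 in MCM5 to -0.41 in MCM4 with a median of -0.65, and 5 of 6 fell with the block, all but MCM4. MCM5 was at 10.51 and 9.70 with both constructs, 10.74 and 10.45 with the CBFA2T3 shRNA, 10.49 and 10.19 with IKKβ(EE) alone, and 10.92 and 10.72 in control cells. That is 60.9% of control (-0.71 ± 0.26, 95% interval -1.32 to -0.11, adjusted p = 0.132, or 0.0174 with the block). MCM3 was at 11.16 and 10.46 with both constructs, 11.28 and 10.94 with the CBFA2T3 shRNA, 11.38 and 11.05 with IKKβ(EE) alone, and 11.53 and 11.48 in control cells. All 6 non-control arrays of MCM3 lay under the control arrays (both constructs 61.7% of control, adjusted p = 0.118, or 0.0173 with the block). MCM2, MCM6 and MCM7 stood at 64.5%, 65.7% and 62.5% of control with both constructs. MCM4 averaged 10.21 with both constructs and 10.62 in control cells (adjusted p = 0.126 with the block). Of the other 4 MCM4 probe sets tested, 3 differed by -0.56 to -0.80 and fell with the block, so the call on MCM4 depends on the probe set.

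The factors that switch the helicase on had the lowest median of the 10 roles, -0.74 with both constructs, and 4 of 6 fell with the block. GINS2, a subunit of the GINS complex that joins the helicase, was at 10.04 and 8.90 with both constructs, 10.13 and 9.54 with the CBFA2T3 shRNA, 10.21 and 9.56 with IKKβ(EE) alone, and 10.48 and 10.19 in control cells. Its groups did not overlap between both constructs and control, and the mean was 54.9% of control (-0.87 ± 0.39, adjusted p = 0.205, or 0.0161 with the block). GINS3, from the same complex, was at 8.64 and 7.94 with both constructs, 8.82 and 8.37 with the CBFA2T3 shRNA, 8.88 and 8.45 with IKKβ(EE) alone, and 9.32 and 8.97 in control cells. In GINS3 all 6 arrays of the other groups lay under both control arrays, and its blocked adjusted p was the lowest of the members (0.00372, difference -0.86 ± 0.28, unblocked adjusted p = 0.102). MCM10, which stabilises the activated helicase, was at 9.69 and 8.82 with both constructs, 9.87 and 9.44 with the CBFA2T3 shRNA, 9.94 and 9.39 with IKKβ(EE) alone, and 10.14 and 10.01 in control cells. All 3 MCM10 probe sets fell with the block, with differences from -0.82 to -0.87. CDC45, the third part of the active helicase, stood at 63.4% of control with both constructs (-0.66 ± 0.23, blocked adjusted p = 0.0168). GINS1 and GINS4 had differences of -0.40 and -0.35 and did not pass (blocked adjusted p = 0.119 and 0.0809).

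Among primase and the polymerases, 6 of 8 members fell with the block, and PRIM1 also without it. PRIM1, the catalytic subunit of primase that makes the RNA start of each strand, was at 9.39 and 8.74 with both constructs, 9.65 and 9.45 with the CBFA2T3 shRNA, 9.71 and 9.56 with IKKβ(EE) alone, and 9.83 and 10.24 in control cells. Both arrays with both constructs were the lowest, the single constructs lay between, and the control arrays were highest. PRIM1 stood at 51.1% of control with both constructs (-0.97 ± 0.23, 95% interval -1.51 to -0.43, adjusted p = 0.0466, or 0.0195 with the block). Its difference was -0.44 within replicate number 1 and -1.50 within number 2, where the control array was 0.41 above that of number 1. POLD1, the catalytic subunit of polymerase δ, was at 8.64 and 7.82 with both constructs, 8.79 and 8.46 with the CBFA2T3 shRNA, 8.81 and 8.66 with IKKβ(EE) alone, and 9.24 and 9.04 in control cells. Again all 6 other arrays lay under the control arrays (both constructs 53.2% of control, -0.91 ± 0.26, adjusted p = 0.0726, or 0.0102 with the block). POLA1, POLA2, POLD3 and POLE, subunits of polymerases α, δ and ε, fell with the block and stood between 67.4% and 69.3% of control. POLE2, the second subunit of polymerase ε, was at 9.65 and 8.87 with both constructs, 9.82 and 9.58 with the CBFA2T3 shRNA, 9.74 and 9.17 with IKKβ(EE) alone, and 9.86 and 9.60 in control cells, and its groups overlapped (blocked adjusted p = 0.0606). PRIM2, the regulatory primase subunit, was at 7.61 and 7.31 with both constructs, 7.68 and 7.66 with the CBFA2T3 shRNA, 7.53 and 7.59 with IKKβ(EE) alone, and 7.46 and 7.74 in control cells. PRIM2 thus differed by -0.14 ± 0.15 with both constructs (95% interval -0.49 to 0.20), next to -0.97 for its partner PRIM1.

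**Figure D2:**
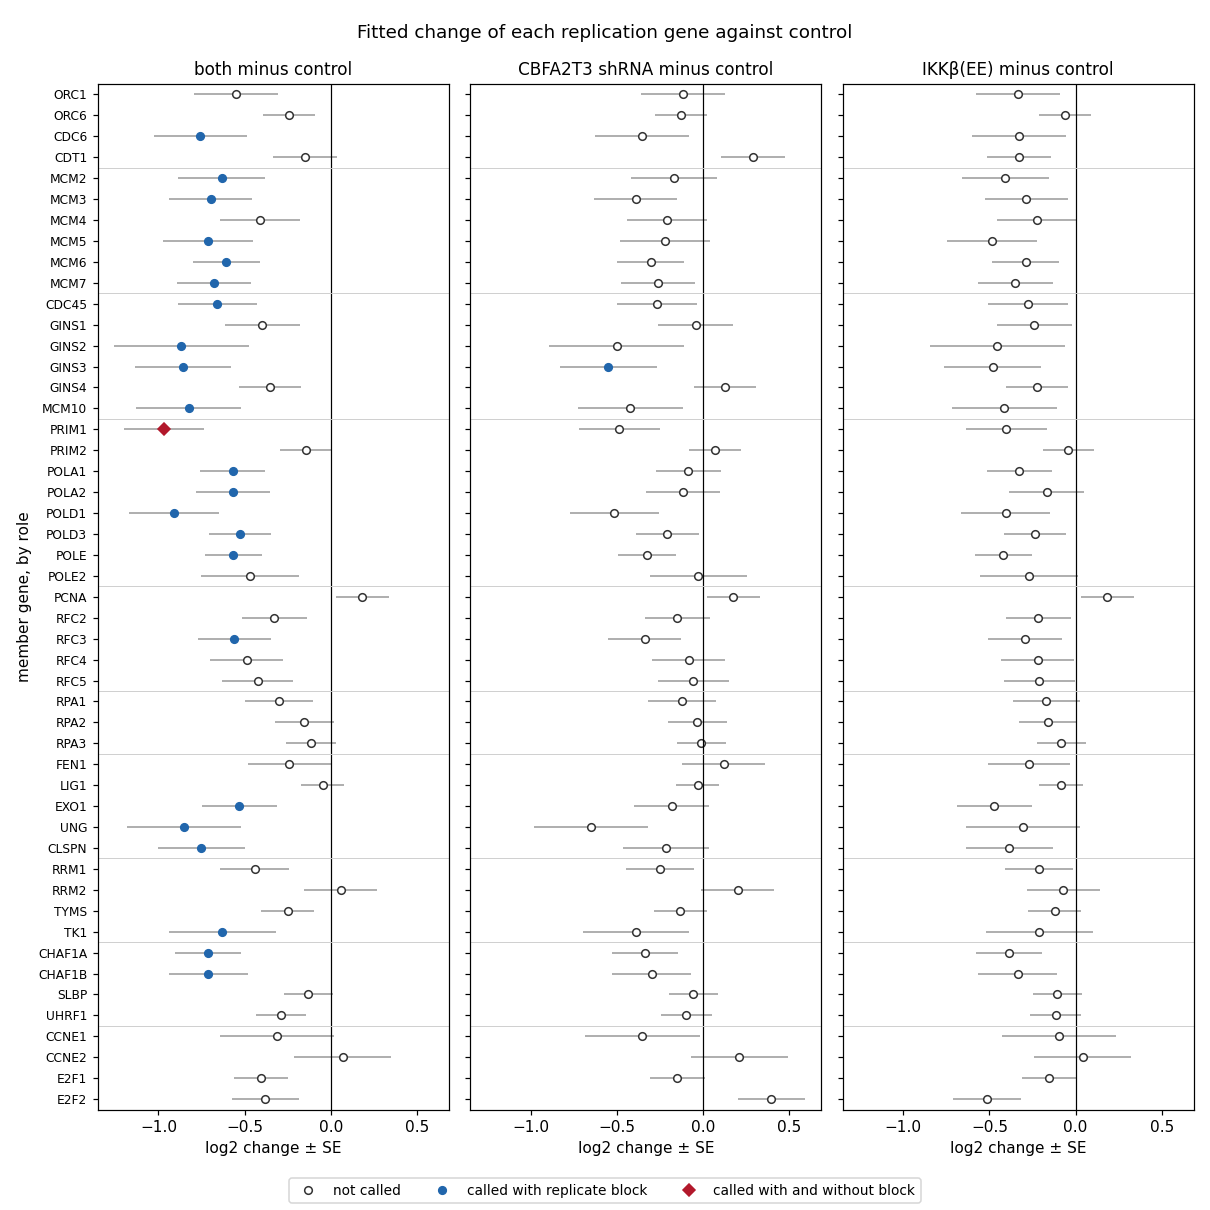
Fitted log2 difference from control (across, bars are ± SE) of each member (down the page, by role) for both constructs, the CBFA2T3 shRNA and IKKβ(EE). Filled circles mark members called with the replicate number as a block, 23 for both constructs, 1 for the CBFA2T3 shRNA and 0 for IKKβ(EE), and the diamond marks PRIM1, called with and without it.

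The sliding clamp was not lower with both constructs, and its loader was in part. PCNA, the ring that holds polymerases on DNA, was at 12.79 and 12.44 with both constructs, 12.71 and 12.50 with the CBFA2T3 shRNA, 12.70 and 12.53 with IKKβ(EE) alone, and 12.41 and 12.46 in control cells. Its values with either single construct lay above both control values, by 0.17 ± 0.15 and 0.18 ± 0.15, and did not pass the test (adjusted p = 0.644 and 0.712). With both constructs the groups overlapped (0.18 ± 0.15, 95% interval -0.18 to 0.54). The loader subunits RFC2, RFC3, RFC4 and RFC5 differed from control with both constructs by between -0.33 and -0.56, and only RFC3 fell with the block (67.8% of control, blocked adjusted p = 0.0331). A second RFC5 probe set differed by 0.22, against -0.42 on the one used. RPA1, RPA2 and RPA3, which coat single-stranded DNA, differed by -0.30, -0.15 and -0.11 with both constructs on the probe sets used, and none of the 3 passed. A second RPA1 probe set differed by -0.43 and fell with the block (blocked adjusted p = 0.0296).

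Of the genes for strand maturation, repair and the fork checkpoint, EXO1, UNG and CLSPN fell with the block and FEN1 and LIG1 did not pass. UNG, the glycosylase that removes uracil from DNA, was at 9.76 and 8.76 with both constructs, 9.76 and 9.15 with the CBFA2T3 shRNA, 9.96 and 9.64 with IKKβ(EE) alone, and 10.18 and 10.03 in control cells. Both constructs left 55.4% of control (-0.85 ± 0.33, adjusted p = 0.151, or 0.0194 with the block), and the CBFA2T3 shRNA alone gave the lowest value of any member in that comparison, -0.65 ± 0.33 (adjusted p = 0.391, or 0.0838 with the block). CLSPN (claspin), which carries the stalled-fork signal to the kinase CHK1, was at 6.75 and 6.05 with both constructs, 7.11 and 6.77 with the CBFA2T3 shRNA, 6.97 and 6.57 with IKKβ(EE) alone, and 7.23 and 7.08 in control cells. It stood at 59.4% of control with both constructs (-0.75 ± 0.25, adjusted p = 0.108, or 0.0103 with the block). FEN1, the nuclease that trims Okazaki fragments, was at 11.68 and 11.06 with both constructs, 11.83 and 11.63 with the CBFA2T3 shRNA, 11.57 and 11.11 with IKKβ(EE) alone, and 11.73 and 11.49 in control cells. In each group FEN1 was lower on replicate 2 than on replicate 1, and its difference with both constructs was -0.24 ± 0.24. The exonuclease EXO1 stood at 69.2% of control (blocked adjusted p = 0.0426), and DNA ligase 1 (LIG1) at 96.8% (95% interval of the log2 difference -0.34 to 0.25).

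Nucleotide supply was uneven. TK1, the thymidine kinase of the salvage route, was at 9.33 and 8.38 with both constructs, 9.29 and 8.90 with the CBFA2T3 shRNA, 9.46 and 9.09 with IKKβ(EE) alone, and 9.62 and 9.34 in control cells, and it fell with the block (64.7% of control, -0.63 ± 0.31, adjusted p = 0.239, or 0.0342 with the block). RRM2, the small subunit of ribonucleotide reductase, was at 12.41 and 11.80 with both constructs, 12.26 and 12.23 with the CBFA2T3 shRNA, 12.14 and 11.81 with IKKβ(EE) alone, and 12.13 and 11.95 in control cells. RRM2 differed from control by 0.06 ± 0.21 with both constructs, and its second probe set by 0.04. The large subunit RRM1 and thymidylate synthase (TYMS) differed by -0.44 and -0.25 and did not pass (blocked adjusted p = 0.0665 and 0.184). A second, dimmer RRM1 probe set differed by -0.56 and fell with the block (blocked adjusted p = 0.0168).

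Both large subunits of the chromatin assembly factor CAF-1, which places histones behind the fork, fell with the block. CHAF1A was at 9.94 and 9.35 with both constructs, 10.05 and 10.00 with the CBFA2T3 shRNA, 10.04 and 9.89 with IKKβ(EE) alone, and 10.42 and 10.29 in control cells. CHAF1B was at 7.72 and 7.06 with both constructs, 7.94 and 7.67 with the CBFA2T3 shRNA, 7.93 and 7.61 with IKKβ(EE) alone, and 8.17 and 8.03 in control cells. In each gene all 6 arrays of the other groups lay under both control arrays. CHAF1A stood at 61.0% of control and CHAF1B at 61.1% with both constructs (adjusted p = 0.0625 and 0.0982, or 0.0136 and 0.0117 with the block). SLBP, which binds histone mRNA, and UHRF1, which guides maintenance methylation, differed by -0.13 and -0.29 and did not pass (blocked adjusted p = 0.423 and 0.142).

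The 4 regulators of the step from G1 to S phase did not pass in any comparison with control on the probe sets used, with or without the block. E2F2, an activating E2F factor, was at 10.37 and 9.78 with both constructs, 10.75 and 10.94 with the CBFA2T3 shRNA, 10.02 and 9.85 with IKKβ(EE) alone, and 10.41 and 10.49 in control cells. The CBFA2T3 shRNA arrays were the highest and all 4 arrays with IKKβ(EE) lay under control. The differences from control were -0.38 ± 0.20 with both constructs, 0.40 ± 0.20 with the CBFA2T3 shRNA and -0.51 ± 0.20 with IKKβ(EE) (adjusted p = 0.261, 0.379 and 0.467). Of 2 dimmer E2F2 probe sets, 1 fell with both constructs when the block was in the fit (-0.50, blocked adjusted p = 0.0372) and the other did not pass (-0.29, blocked adjusted p = 0.174). Cells with both constructs differed by -0.77 ± 0.20 from cells with the CBFA2T3 shRNA alone, the lowest value of any member in that comparison (95% interval -1.23 to -0.32, adjusted p = 0.152, or 0.0556 with the block). The interaction of the constructs on E2F2 was -0.26 ± 0.28 (95% interval -0.91 to 0.39). E2F1, another activating factor, was at 8.28 and 7.92 with both constructs, 8.47 and 8.24 with the CBFA2T3 shRNA, 8.31 and 8.39 with IKKβ(EE) alone, and 8.42 and 8.59 in control cells. E2F1 did not share the higher level with the CBFA2T3 shRNA (-0.15 ± 0.16).

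Cyclins E1 and E2 activate CDK2 at the start of S phase. CCNE1 was at 8.42 and 7.67 with both constructs, 8.31 and 7.70 with the CBFA2T3 shRNA, 8.54 and 7.99 with IKKβ(EE) alone, and 8.62 and 8.10 in control cells. In CCNE1 the replicates lay further apart than the groups. CCNE2 was at 9.71 and 8.98 with both constructs, 9.66 and 9.31 with the CBFA2T3 shRNA, 9.62 and 9.02 with IKKβ(EE) alone, and 9.31 and 9.25 in control cells. Its difference from control with both constructs was 0.07 ± 0.28 on the probe set used and -0.32 on a dimmer one.

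**Figure D3:**
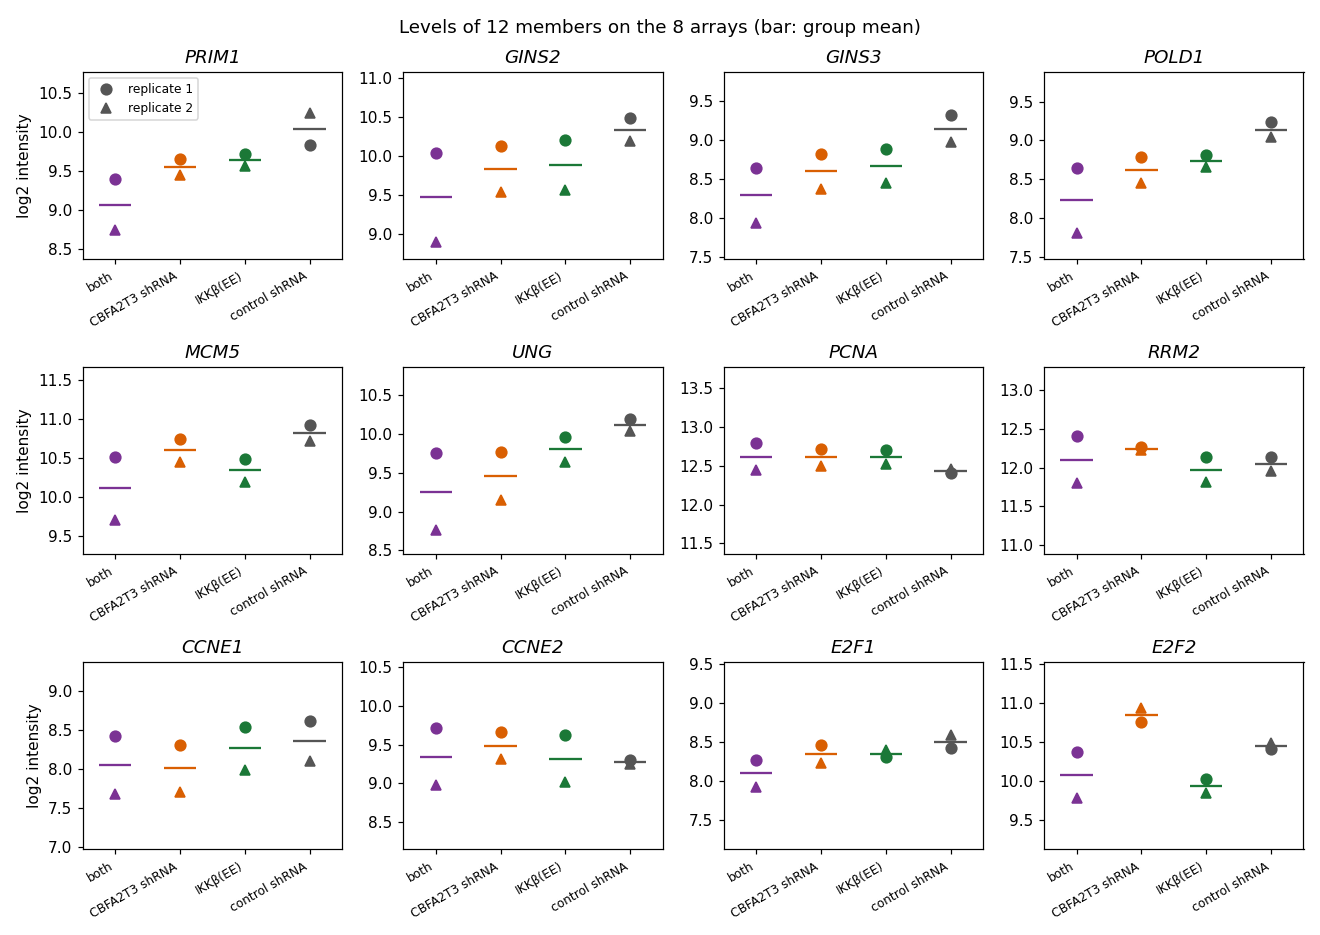
Log2 level (up the page) of 12 members on the 8 arrays, by group (across); circles are replicate 1, triangles replicate 2 and bars the group means. PRIM1, POLD1 and GINS3 have their control arrays on top, PCNA and RRM2 have overlapping levels with both constructs and in control cells, and CCNE1 is split by replicate number in every group.

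The order of the group means was shared by most members. The mean with both constructs was the lowest of the 4 groups in 40 members, the control mean was the highest in 41, and 33 had a lower mean with IKKβ(EE) than with the CBFA2T3 shRNA. These orders rest on shared control arrays, so they are not separate results. With the CBFA2T3 shRNA alone, 41 of 49 members were lower than in control cells, with a median of -0.15 against 0.02 over all tested genes. No overlap with control was seen below control in 23 members, beside 23.6% of tested genes, and above control in 6, beside 28.0% of tested genes: CDT1, GINS4, PCNA, RRM2, CCNE2 and E2F2. No member passed (limma, lowest adjusted p = 0.364, unadjusted p of 0 members under 0.05), beside 0.463% of tested genes called lower. At an unadjusted p under 0.05, 901 of all 11449 tested genes were lower and 987 higher. With the block, GINS3 fell (-0.55 ± 0.28, 68.3% of control, blocked adjusted p = 0.0348), beside 3.49% of tested genes called lower. That call was lost without any 1 of the control, CBFA2T3 shRNA or IKKβ(EE) arrays. Without either array of the group with both constructs, 3 members were called (GINS3, POLD1 and UNG).

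With IKKβ(EE) alone, 47 of 49 members were lower than in control cells, with a median of -0.27 against -0.04 over all tested genes, and PCNA and CCNE2 were the other two. The arrays did not overlap with control in 32 members that were lower, beside 26.0% of tested genes. No member passed (limma, lowest adjusted p = 0.467), beside 0.0175% of tested genes called lower. At an unadjusted p under 0.05, 2 members were lower (POLE and E2F2), a similar share to the 467 of all 11449 tested genes. The lowest values were -0.51 ± 0.20 in E2F2, -0.48 ± 0.26 in MCM5 and -0.48 ± 0.28 in GINS3. With the block 0 members were called (lowest adjusted p = 0.0767), beside 0.507% of tested genes. Without either array of the group with both constructs MCM5 and GINS3 were called.

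Each construct was also set against the combination. Both constructs against the CBFA2T3 shRNA alone, which shows the effect of adding IKKβ(EE), gave a median of -0.32 (-0.04 over all tested genes), with 47 members lower. In limma 0 members passed without or with the block, beside 0.0437% and 1.55% of tested genes called lower. At an unadjusted p under 0.05, 4 members were lower (E2F2, POLA1, GINS4 and CDT1), a similar share to the 934 of all 11449 tested genes. Both constructs against IKKβ(EE) alone, which shows the effect of adding the shRNA, gave a median of -0.22 (0.02 over all tested genes), with 42 members lower. Here too 0 members passed without or with the block, beside 0.0786% and 2.11% of tested genes. Only PRIM1 had an unadjusted p under 0.05 (-0.57 ± 0.23, adjusted p = 0.317), beside 793 of all 11449 tested genes that were lower at that level. In both comparisons the median was larger in size within replicate number 2. The medians were -0.13 and -0.53 within numbers 1 and 2 against the CBFA2T3 shRNA, and -0.04 and -0.41 against IKKβ(EE).

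The interaction, the effect of both constructs minus the sum of the single effects, was near 0 for the members. Its median was -0.05, 32 of 49 values were below 0, and the extremes were -0.28 ± 0.30 in POLA2 and 0.18 ± 0.24 in POLE. No member had an unadjusted p under 0.05, beside 85 of all 11449 tested genes with a value below 0 and 133 above 0. In limma 0 members were called with or without the block, beside 0% of tested genes called lower and 0.0175% called higher in either fit. The median was -0.38 without replicate 1 of the group with both constructs and 0.24 without its replicate 2, so its sign depended on the array.

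Replicate number moved with the members in all 4 groups. The fitted difference of replicate 2 from replicate 1 had a median of -0.29, against -0.0024 over all tested genes, and 48 of 49 members were lower on replicate 2 (PRIM2 differed by 0.00 ± 0.10). With limma, 9 members passed, beside 3.0% of tested genes called lower: CDC6, GINS2, GINS3, MCM10, POLE2, FEN1, CLSPN, TK1 and CCNE1. GINS2 differed by -0.67 ± 0.13 (adjusted p = 0.0298), to 63.0% of replicate 1. CCNE1 differed by -0.61 ± 0.07 (adjusted p = 0.0130), with -0.75, -0.61, -0.55 and -0.52 in cells with both constructs, the CBFA2T3 shRNA, IKKβ(EE) and the control shRNA. The other 7 differed by -0.38 to -0.50 (adjusted p from 0.0229 to 0.0496). No call held for all left-out arrays: 5 members were called without either control array, 1 (CCNE1) without either array with both constructs, and 0 without any 1 of the CBFA2T3 shRNA or IKKβ(EE) arrays.

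**Figure D4:**
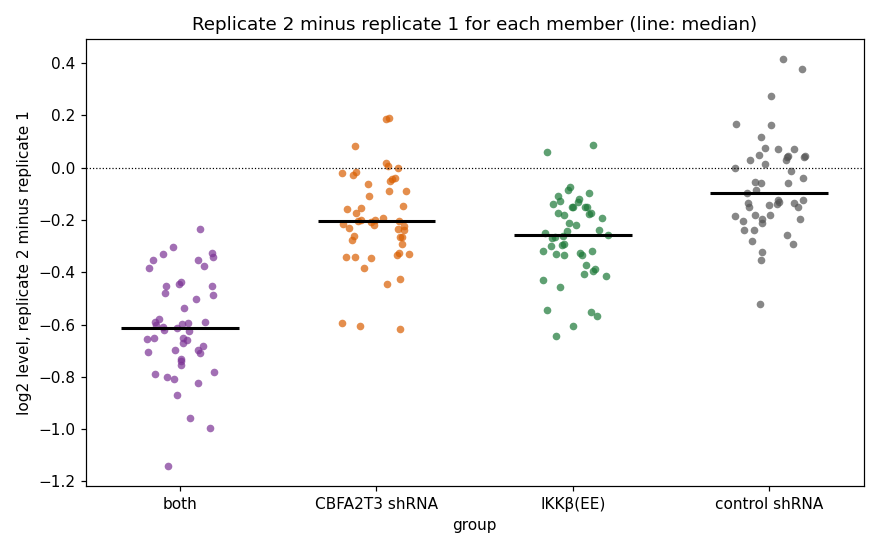
Log2 level on replicate 2 minus replicate 1 (up the page) for the 49 members in each group (across), 1 point per gene with a line at the median. The medians are -0.61 with both constructs, -0.20 with the CBFA2T3 shRNA, -0.26 with IKKβ(EE) alone and -0.10 in control cells, and all 49 points with both constructs lie below 0.

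In the cells with both constructs replicate 2 was below replicate 1 in all 49 members (median -0.61), and for all 49 this was the most negative difference of the 4 groups. It was below in 44 members with the CBFA2T3 shRNA (median -0.20), in 47 with IKKβ(EE) (median -0.26) and in 32 in control cells (median -0.10). In 30 members replicate 2 was lower in all 4 groups. Measured from the control mean, the median member stood at -0.18 and -0.79 on the arrays with both constructs, -0.08 and -0.27 with the CBFA2T3 shRNA, -0.13 and -0.40 with IKKβ(EE), and 0.05 and -0.05 in control cells. Replicate 1 with both constructs was thus within the range of the single constructs, and replicate 2 was the lowest array for 48 members. Whether the number marks a day, a batch or a passage is not given, so a difference in cell culture and one in array handling cannot be told apart. With both constructs the IKBKB probe set that detected the construct was higher, and CBFA2T3 lower, on replicate 2 than on replicate 1. With IKKβ(EE) alone that IKBKB probe set was lower on replicate 2 (10.85 and 10.39). With the CBFA2T3 shRNA alone CBFA2T3 was lower on replicate 2 (8.40 and 8.11). The 3′ minus 5′ difference of ACTB was lower on replicate 2 with both constructs and higher on it in the other 3 groups. That of GAPDH went otherwise, lower on replicate 2 with the CBFA2T3 shRNA alone and higher on it in the other 3 groups. ITGAM was higher on replicate 2 in all 4 groups. CSF1R was lower on replicate 2 with both constructs and with the CBFA2T3 shRNA, and higher on it in the other groups. Their part in the replicate difference was not tested.

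Other cell-cycle genes were set beside the members. Of 54 further replication and S-phase genes 51 were tested, with a median of -0.28 with both constructs and 44 lower than in control cells. CDC7, the kinase that fires origins, and the helicase BLM fell (-0.97 ± 0.21 and -0.59 ± 0.13, adjusted p = 0.0368 and 0.0376), and 13 fell with the block. Of all tested genes 3.76% were called lower without the block and 11.6% with it. CDC7 was at 8.68 and 8.06 with both constructs, 8.59 and 8.29 with the CBFA2T3 shRNA, 9.18 and 9.13 with IKKβ(EE) alone, and 9.24 and 9.43 in control cells. Unlike PRIM1, where single constructs lay between the others, CDC7 had its CBFA2T3 shRNA arrays near those with both constructs and its IKKβ(EE) arrays near control. POLD4, the small subunit of polymerase δ, rose with the block (0.62 ± 0.22, adjusted p = 0.120, or 0.00557 with the block). It was at 7.79 and 8.14 with both constructs, 7.95 and 8.37 with the CBFA2T3 shRNA, 7.36 and 7.68 with IKKβ(EE) alone, and 7.16 and 7.54 in control cells.

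Of 42 genes of G2 and mitosis, 41 were lower with both constructs than in control cells, with a median of -0.36. TPX2, CENPF and CCNB2 fell (-0.84, -0.52 and -0.50, adjusted p = 0.0372, 0.0326 and 0.0459), and 11 fell with the block, beside 3.76% and 11.6% of tested genes called lower. The fitted difference of replicate 2 from replicate 1 had a median of -0.07 in these genes, with 0 called by limma and 1 gene with an unadjusted p under 0.05. Of all 11449 tested genes 3.0% were called lower, and 1576 were lower at an unadjusted p under 0.05. Within groups, 41 of 42 were lower on replicate 2 with both constructs (median -0.37), 19 with the CBFA2T3 shRNA (median 0.01), 33 with IKKβ(EE) alone (median -0.11) and 7 in control cells (median 0.13). CENPF, a kinetochore protein, was at 10.24 and 10.24 with both constructs, 10.58 and 10.65 with the CBFA2T3 shRNA, 10.57 and 10.48 with IKKβ(EE) alone, and 10.72 and 10.80 in control cells. TPX2, a spindle factor, was at 9.99 and 9.43 with both constructs, 10.42 and 10.34 with the CBFA2T3 shRNA, 10.26 and 10.15 with IKKβ(EE) alone, and 10.49 and 10.61 in control cells. The difference between the lists was not tested.

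**Figure D5:**
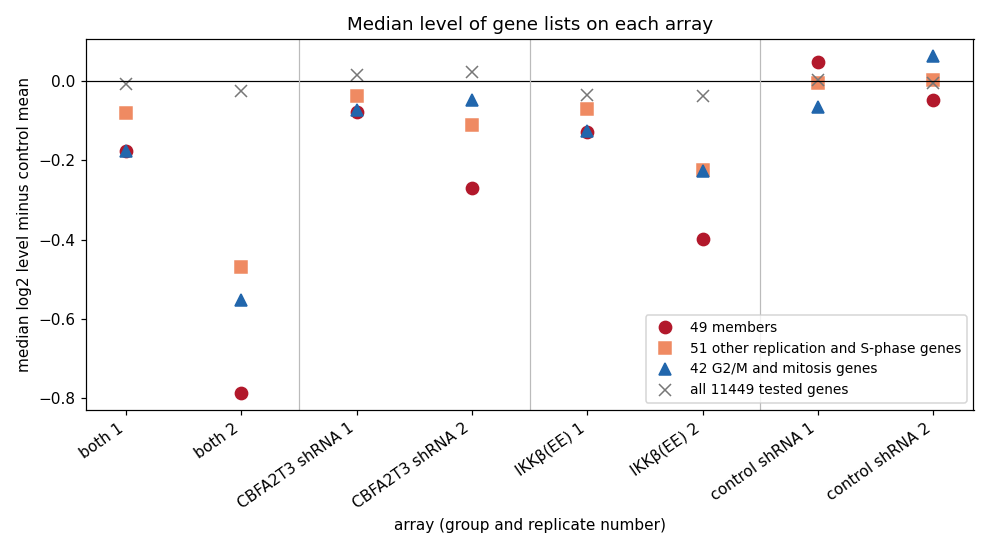
Median log2 level minus control mean (up the page) of the 49 members, 51 other replication and S-phase genes, 42 genes of G2 and mitosis and all 11449 tested genes, on each array (across). The members stand at -0.79 on replicate 2 with both constructs and at -0.18 on its replicate 1.

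The members were also read by whether their promoter window held the E2F core. With both constructs the 24 members that hold the core had a median of -0.56 (from -0.97 to 0.18), with 12 called with the block. The 18 without it had a median of -0.50 (from -0.91 to -0.13), with 9 called with the block. Of all tested genes 11.6% were called lower with the block. PRIM1 and GINS2 of the printed windows hold the core and MCM10 does not, and all 3 fell with the block, while E2F2 holds it and did not pass. The members share their arrays and are not independent points, and no test was made.

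Where a member had several probe sets, these mostly moved alike. The 49 members had 84 tested probe sets, 24 members had 1 and 25 had more. Of the 35 probe sets not used, 33 had the sign of the one used in the comparison of both constructs with control, and in 45 members all tested probe sets were lower. At least 1 probe set was called with the block in 28 members, among them CDT1, MCM4, RPA1, RRM1 and E2F2, whose probe set used here was not. In MCM6, GINS2 and POLD3 a dimmer probe set did not pass. All tested probe sets were called in 20.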

How the data were processed

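The authors deposited log2 probe set intensities of 8 arrays, made with RMA per the submitters' processing notes. RMA corrects background, gives all arrays 1 distribution and summarises probes, so a shift common to most genes is removed and values here are relative to the other genes of an array. The version, chip definition, any filter and a genome build are, in the sources used here, not given. Of 54675 probe sets, 62 controls and 30132 below log2 5 on all but at most 1 array were left out, and 24481 were tested. The platform annotation gave 1 symbol for 41097, several for 1801 (not used to name a gene) and none for 11777.

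Group means were fitted to all 8 arrays with limma 3.58.1 (R 4.3.3, statmod 1.5.0; 4 residual and 3.54 prior degrees of freedom), two-sided, with Benjamini-Hochberg adjustment over all tested probe sets of a comparison at 0.05. The replicate comparison used the same model with that number added as a term. Errors after ± are standard errors of the unblocked fit (of the fit with the replicate term in the replicate comparison), and their median was 0.154, or 0.120 with the block. Precision is limited by 2 arrays a group: an exact permutation test of 2 against 2 cannot go below p = 0.333. The labels call the arrays biological replicates and do not say whether equal numbers share a day or batch. Differences between replicates 2 and 1 correlated over the tested probe sets at 0.344 to 0.577 between groups (6 pairs), so the numbers were taken as pairs, and blocked values are given where they change a call or count. The fits were tested on simulated data in which the replicate shift of a gene was equal in all 4 groups. The members' median shift was unequal (-0.61 with both constructs, -0.10 in control cells). The simulation therefore cannot show how the blocked fit behaves for them.

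The members, gene lists, tests and alternatives were chosen with earlier results of these data known. Values on every array are given for members called in a comparison with control or between replicates (the 12 largest of each), the 3 highest and 3 lowest of each, and the 4 regulators of the G1 to S step. Outside the members, CBFA2T3, IKBKB and up to 3 called genes at either end of each other list are named, and POLD4, E2F5, TFDP1, CDKN1A and CDKN1B were added after their values were seen. Promoter windows came from RefSeq (GRCh38.p14). Alternatives were no floor or a floor at log2 6, cyclic loess, equal array medians, trend and robust moderation, array weights, averaged probe sets, no _x_at or _s_at probe sets, the compared groups alone, the replicate block, and each array left out with and without the block.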

Additional observations from a re-analysis of the deposited data

How the results depend on the processing

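The 7 medians over the members kept their sign and moved by less than the spread between replicates under every alternative other than left-out arrays. Leaving out an array of the group with both constructs moved 4 of them. The median against control was -0.79 without its replicate 1 and -0.18 without its replicate 2, that against the CBFA2T3 shRNA -0.67 and -0.0168, that against IKKβ(EE) -0.53 and 0.0704, and the interaction -0.38 and 0.24. Over all left-out arrays the medians ran from -0.27 to -0.08 for the CBFA2T3 shRNA, from -0.40 to -0.13 for IKKβ(EE) and from -0.34 to -0.17 between replicates. Counts of called members were less stable. For both constructs against control the count of 1 became 23 with the replicate block, 2 with trend and robust moderation (PRIM1 and CHAF1A), and 0 with no floor, equal array medians, array weights or the compared groups alone. With single arrays left out it ran from 0 to 30, and with the replicate block from 1 to 33. For the CBFA2T3 shRNA against control the block gave 1, and 0 to 3 with left-out arrays, and for IKKβ(EE) it gave 0, and 0 to 2. Without replicate 1 of the group with both constructs, both against the CBFA2T3 shRNA gave 2 (POLA1 and E2F2), or 18 with the block, and both against IKKβ(EE) gave 6 with the block. Unblocked, every other left-out array gave 0 in either comparison. Between replicates the count of 9 became 3 with no floor, 14 with a floor at log2 6, 5 with cyclic loess and 22 with trend and robust moderation, and 0 to 5 with left-out arrays. The causes were not tested. Of the values of single members under an alternative, 71 were called there and in the fit reported, 362 in neither, 46 gained a call, 90 lost it and 0 changed direction. The arrays give no detection calls, and 2 arrays a group limit what could be called.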

Other observations

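Genes that act upstream of E2F were read beside the members. Of 28 E2F, RB, D-cyclin and CDK-inhibitor genes 24 were tested, with a median of -0.09 for both constructs against control, 2 called higher and 1 lower, beside 4.97% and 3.76% of tested genes. CCND2, a D-type cyclin that activates CDK4 and CDK6, was at 7.38 and 8.29 with both constructs, 3.95 and 4.27 with the CBFA2T3 shRNA, 6.05 and 6.62 with IKKβ(EE), and 3.89 and 4.02 in control cells. CCND2 and CCND1 rose with both constructs (3.88 ± 0.31 and 2.36 ± 0.37, limma adjusted p = 0.00159 and 0.0159), and since their control levels lay under log2 5, close to background, the folds are uncertain. FBXW7, the ubiquitin ligase subunit that marks cyclin E for degradation, fell (-1.09 ± 0.21, adjusted p = 0.0260). It was at 9.24 and 8.95 with both constructs, 9.15 and 8.55 with the CBFA2T3 shRNA, 9.94 and 9.82 with IKKβ(EE), and 10.25 and 10.12 in control cells.

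With the replicate number as a block, 6 of these genes rose and 2 fell, beside 12.5% and 11.6% of tested genes. CDKN1A, the CDK inhibitor p21, was at 10.51 and 11.05 with both constructs, 10.37 and 10.52 with the CBFA2T3 shRNA, 10.55 and 11.05 with IKKβ(EE), and 10.15 and 9.92 in control cells (0.75 ± 0.23, adjusted p = 0.0848, or 0.0273 with the block). CDKN1B, the inhibitor p27, and E2F5, an E2F factor that represses, also rose with the block (0.45 ± 0.18 and 0.94 ± 0.28, blocked adjusted p = 0.0159 and 0.0217). TFDP1, the partner with which E2F factors bind DNA, fell with the block (-0.74 ± 0.28, blocked adjusted p = 0.00771). It was at 10.31 and 9.58 with both constructs, 10.53 and 10.12 with the CBFA2T3 shRNA, 10.56 and 10.09 with IKKβ(EE), and 10.83 and 10.53 in control cells, so that it too was lower on replicate 2 in every group. How these genes relate to the members was not tested.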
